A study of Mus musculus with 6 samples.

Results

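MII eggs carrying a histone H3.3 transgene with lysine 27 changed to arginine (K27R) were compared with eggs carrying a transgene in which the neighbouring residue, arginine 26, was changed to lysine (R26K). The comparison used 4 of the 6 libraries of the series, 2 for each substitution, chosen by the genotype in their labels. All eggs came from super-ovulated 8-week-old HISRainbow;Figla-iCre female mice, in which the Figla promoter drives Cre recombinase in oocytes, so the mouse line, the driver and the superovulation were common to both groups. The tag differed together with the substitution: K27R eggs carried H3.3K27R-mCherry and R26K eggs carried H3.3R26K-eCFP. The 2 remaining libraries came from eggs with H3.3-eGFP. They gave a reference level and also entered the filter, the scaling and the estimate of spread of the main fit. Eggs were assigned to a group by their fluorescence under a confocal microscope. The effect of a residue and that of its fluorescent tag therefore cannot be told apart, and the labels name no loss of the endogenous H3.3 genes. The labels call the libraries biological replicates, and the numbers of eggs and females behind each are not given in the sources used here.

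H3.3 is the histone H3 variant that is placed into chromatin outside DNA replication, by chaperones such as the HIRA complex and DAXX with ATRX. On its tail, lysine 27 is methylated by Polycomb repressive complex 2 or acetylated by p300 and CBP, and arginine 26 beside it can be methylated by Carm1. A fully grown mouse oocyte and the egg it forms are almost silent in transcription, and the egg works from stored maternal mRNA whose translation and decay are controlled through the poly(A) tail.

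The 2 mouse genes that encode H3.3, H3f3a (chromosome 1, 180800832-180813943, minus strand) and H3f3b (chromosome 11, 116021912-116027962, minus strand), are given over codons 22 to 31 to place the neighbouring residues. Sequences run 5′ to 3′ in the coding sense, from GENCODE M21 transcripts on GRCm38 (mm10), with codons 26 (arginine) and 27 (lysine) in capitals. Codons are numbered as in the histone field, without the initiator methionine.
H3f3a: acaaaagccgctCGCAAGagtgcgccctct
H3f3b: accaaggcggctCGGAAAagcgcgccctct
The 2 genes encode the same residues with different codons at both positions, CGC and AAG in H3f3a against CGG and AAA in H3f3b, and differ at 6 of the 30 bases. The transgene sequence was not used here, so reads from it cannot be told from reads of the endogenous genes.

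The count of H3f3a and H3f3b reads did not separate the groups beyond the test. H3f3b stood at 3157 and 4477 CPM (counts per 1000000 counts of a library scaled by TMM) for K27R, 2830.2 and 1910.0 CPM for R26K and 3721 and 3901 CPM for H3.3, with a log2 fold change of 0.69 ± 0.28 (K27R minus R26K, ± SE; edgeR adjusted p = 0.373). H3f3a stood at 79.98 and 67.6 CPM for K27R, 35.7 and 38.2 CPM for R26K and 63.9 and 105 CPM for H3.3, with a log2 fold change of 0.999 ± 0.60 (edgeR adjusted p = 0.624). K27R was the higher group for both genes and the groups did not overlap, which was also so for 53.8% of all tested genes. The H3f3a sequence resembles 16 other annotated genes at 95% identity or more over 200 bases, and that of H3f3b resembles 2, so their reads may be shared with copies.

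The libraries differed in depth and in how many genes they held. The K27R libraries had 11557291 and 10803477 counts and the R26K libraries 39603440 and 33786225, against 12748821 and 11452906 for H3.3. A count was found for 10715 and 7405 genes in K27R and for 12135 and 12112 in R26K. When every library was thinned at random to 10803477 counts, these became 10681 and 7405 in K27R and 11705 and 11781 in R26K. The K27R libraries, and replicate 2 above all, thus held fewer genes than the R26K libraries at equal depth. The H3.3 libraries held 7515 and 7370 genes after thinning, near the number of K27R replicate 2. Of the 10667 genes tested, 3109 had a count in exactly 1 of the K27R libraries, compared with 551 in exactly 1 R26K library. Substitution, tag and depth all change together between the groups and cannot be told apart by design.

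Agreement between replicates set which genes could be compared. At a mean level of 10 to 50 CPM over all libraries, 60.3% of genes were more than 2-fold apart between the K27R replicates and 17.4% between the R26K replicates. From 50 to 200 CPM these shares were 34.3% and 4.05%, from 200 to 1000 CPM they were 13.1% and 0.979%, and above 1000 CPM they were 2.22% and 0.741%. The K27R replicates thus differed more than the R26K replicates in each of these ranges, and the gap narrowed with abundance. The correlation of log2 CPM across the 10667 genes, which are not independent replicates, was 0.682 between the K27R libraries and 0.845 between the R26K libraries.

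**Figure D1:**
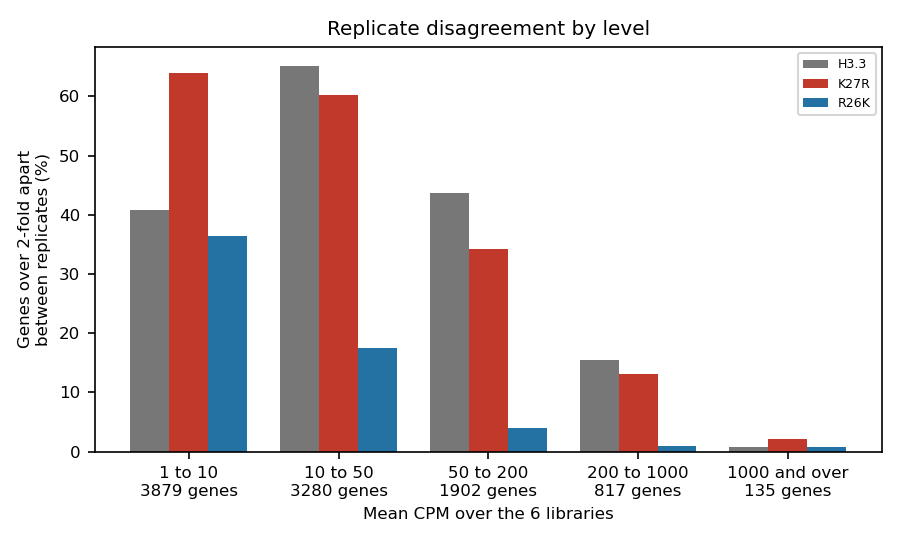
Share of genes more than 2-fold apart between the 2 replicates of a group (vertical axis, percent), in bins of mean CPM over the 6 libraries (horizontal axis), for H3.3 (grey), K27R (red) and R26K (blue). In the bin of 10 to 50 CPM the share is 60.3% in K27R and 17.4% in R26K, and above 1000 CPM both are under 3%.

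Markers of the egg were present in every library. All 9 egg markers, including the growth factor gene Gdf9 and the zona pellucida gene Zp3, had counts, and their summed level was 38776 and 51819 CPM for K27R and 43650.5 and 42888 CPM for R26K. Of 36 marker genes of cumulus and granulosa cells, the somatic cells that surround the oocyte, 23 and 6 had a count in K27R against 25 and 19 in R26K. None of the 21 that were tested was called. The summed level ranged from 1410.5 to 2031 CPM for K27R and from 2068 to 2135 CPM for R26K, most of it from Serpine2. Without Serpine2 the sums were 376 and 16.05 CPM for K27R and 222 and 254 CPM for R26K, and the markers Fshr, Amh and Has2 were at or near 0 in all 4 libraries. The granulosa enzyme gene Cyp19a1 stood at 43.7 and 15.6 CPM for K27R and at 28.3 and 43.8 CPM for R26K. Tnfaip6, a gene of the expanding cumulus, stood at 86.9 and 0 CPM for K27R and at 29.4 and 11.04 CPM for R26K. These markers were thus present in both groups, and Tnfaip6 was absent from K27R replicate 2. The steroid synthesis genes Cyp11a1 (38.3 and 0.095 CPM for K27R, 9.23 and 15.7 CPM for R26K) and Hsd3b1 (10.8 and 0 CPM for K27R, 10.1 and 74.02 CPM for R26K) were likewise lowest in K27R replicate 2. Inha, an inhibin subunit of granulosa cells, was at 83.0 and 0 CPM for K27R and at 25.3 and 53.5 CPM for R26K. Summed markers of blood and oviduct cells were 179 and 174 CPM for K27R and 168 and 100.3 CPM for R26K. Most of this came from Pecam1, at 156 and 125 CPM for K27R and 131 and 79.7 CPM for R26K. The blood markers Ptprc and Cd3e and the haemoglobin genes were at 0. Other members had counts, among them C1qb (7.17 and 17.1 CPM for K27R, 0 and 1.39 CPM for R26K) and H2-Aa (0.081 and 32.4 against 1.63 and 1.88 CPM). Cd68 had 5.21 and 0 against 4.78 and 1.03 CPM, and Krt8 0.73 and 0 against 11.7 and 0.756 CPM. K27R replicate 2 thus had the fewest cumulus markers, and the part of these cells in the results was not tested. In these bulk samples fewer cells of a type and less RNA per cell cannot be told apart.

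edgeR's quasi-likelihood test called 40 of the 10667 tested genes at an adjusted p under 0.05, which is 0.375% of the genes tested. Of these, 18 (0.169% of those tested) were higher in K27R and 22 (0.206%) were lower in K27R than in R26K. Paip1, Arid5b, Camk2g and Nup98 were among the higher genes, and Zar1, Sap30, Phf1 and Zbed3 among the lower ones. The differences were large, from 3.88-fold to 60.5-fold, with adjusted p-values from 0.0174 to 0.0488. The called genes were all abundant, with a mean over the 4 libraries of at least 90.4 CPM and a median of 439 CPM, and all 40 had a count in every library. At an unadjusted p under 0.05 there were 1413 genes, 366 higher and 1047 lower in K27R. The K27R and R26K libraries did not overlap for any of the 40, a property shared by 53.8% of all tested genes, so it says little alone.

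**Figure D2:**
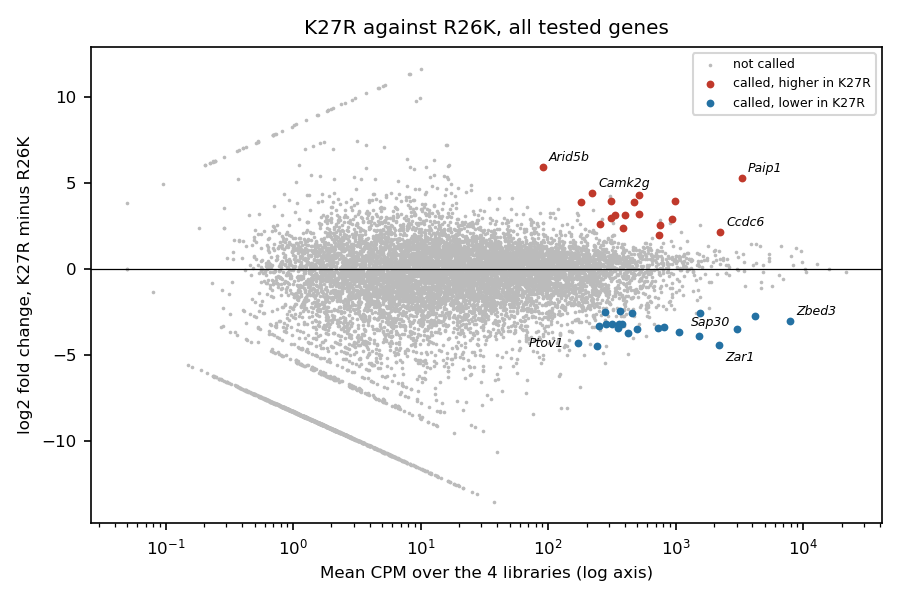
Log2 fold change of K27R minus R26K (vertical axis) against the mean CPM over the 4 libraries (horizontal log axis) for the 10667 tested genes, with genes called higher in K27R in red and lower in blue. All called genes reach a mean of 90.4 CPM, and the straight streaks at low CPM are genes without a count in one group or library.

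The list of called genes depended on both K27R libraries. Without K27R replicate 1 or without K27R replicate 2 edgeR called 0 genes in either direction, with lowest adjusted p-values of 0.0937 and 0.109 and with 1890 and 852 genes at an unadjusted p under 0.05. The median absolute log2 fold change of the 40 genes was 3.25 and 3.37 in those fits, against 3.27 with all libraries. The lone K27R library is then assumed to vary like the other groups, and DESeq2 was run on all libraries only, where it called 162 genes higher and 518 lower. Without R26K replicate 1 the calls were 52 higher and 88 lower, without R26K replicate 2 they were 41 and 95, without H3.3 replicate 1 they were 27 and 72, and without H3.3 replicate 2 they were 24 and 74. Upper-quartile scaling in place of TMM, the trimmed mean of M-values, moved the median log2 fold change of all tested genes from -0.32 to -0.10 and gave 23 higher and 17 lower genes, 35 of them among the 40. With every library thinned to the same depth the calls were 19 higher and 20 lower, and 38 of the 40 were among them.

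The H3.3 eggs stood on the K27R side for every called gene. In the main fit the mean of the H3.3 libraries was nearer to K27R than to R26K for 40 of the 40. This was so for 64.02% of all tested genes and 72.2% of the 2854 that averaged 50 CPM or more over the 6 libraries. The H3.3 mean lay between the other means for 24 of the 40. The median absolute log2 fold change of the 40 genes was 3.27 for K27R minus R26K, 3.13 for R26K minus H3.3 and 0.40 for K27R minus H3.3. These 3 comparisons share libraries, so the values are set side by side without a test. In R26K against H3.3 edgeR called 0.619% of tested genes. In K27R against H3.3 it called 0 genes, 0% of those tested, with a lowest adjusted p of 0.522 and with 759 genes at an unadjusted p under 0.05. H3.3 and K27R libraries also had similar depths, and depth and group cannot be told apart here.

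**Figure D3:**
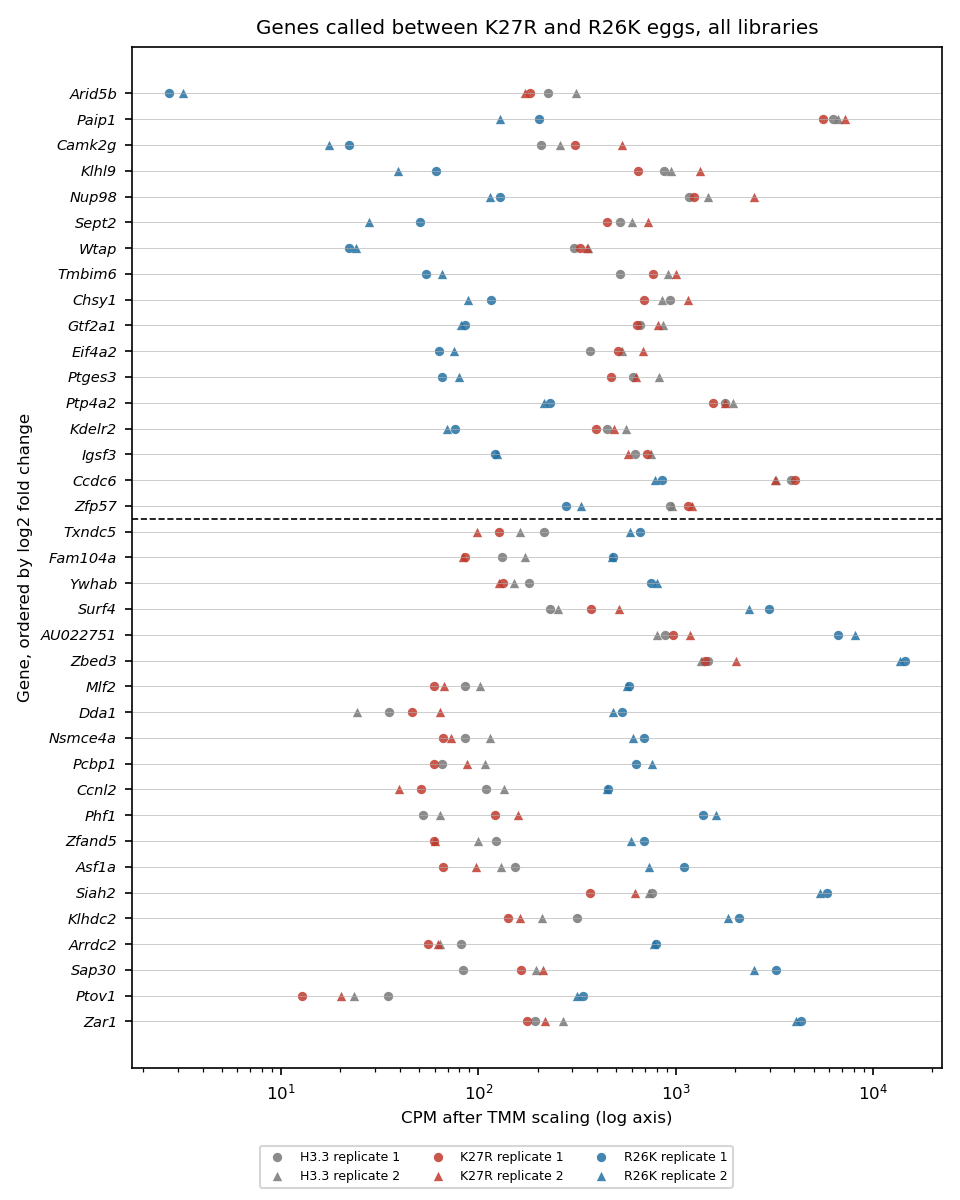
CPM after TMM scaling (horizontal log axis) of 37 of the 40 called genes in each of the 6 libraries, with H3.3 in grey, K27R in red and R26K in blue, circles for replicate 1 and triangles for replicate 2. Genes above the dashed line are higher in K27R, genes below it lower, and the blue points stand apart from the red in each row while the grey points lie on the red side.

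The machinery that writes and reads lysine 27 methylation held 1 called gene. Of 39 tested members of the Polycomb complexes and the H3K27 demethylases, none was called higher in K27R and 1, Phf1, was called lower, with 15 of 39 above 0 and a median log2 fold change of -0.30 (all tested genes: 41.9% above 0, median -0.32). Phf1 (chromosome 17, 26933052-26937908, plus strand) encodes a Polycomb-like protein that accompanies PRC2 and reads methylated lysine 36. It stood at 121 and 159 CPM for K27R against 1369.6 and 1607 CPM for R26K and 52.6 and 63.8 CPM for H3.3. Both R26K libraries were above the other 4, with a log2 fold change of -3.41 ± 0.29 (edgeR adjusted p = 0.0182). The Phf1 gene overlaps Cuta in the annotation, and reads of overlapping genes cannot be told apart without strand.

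None of the lysine 27 methyltransferase or demethylase genes was called. The methyltransferase gene Ezh2 stood at 456 and 321 CPM for K27R and 556 and 555 CPM for R26K (log2 fold change -0.51 ± 0.27, edgeR adjusted p = 0.521). Its PRC2 core partners Eed and Suz12 had log2 fold changes of -0.25 ± 0.31 and 0.45 ± 0.41, and their groups overlapped. The demethylase gene Kdm6b stood at 219.6 and 246 CPM for K27R and 88.2 and 102 CPM for R26K, without overlap, but did not pass the test (log2 fold change 1.29 ± 0.32, edgeR adjusted p = 0.229), and Kdm6a, which removes the same mark, had a log2 fold change of 0.39 ± 0.39. The mRNA of Ezh2, Eed, Suz12, Kdm6a and Kdm6b therefore gave no call in either direction at this depth.

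When the fit was limited to the 2854 genes that averaged 50 CPM or more, edgeR called 278 genes, 9.74% of those tested, with 103 higher (3.61%) and 175 lower (6.13%). The average was taken over the 6 libraries, so a gene could pass through its level in 1 group alone, which ties its direction to the filter. Calls elsewhere are those of all tested genes unless this limited fit is named. Some further lists also had calls in the limited fit. Of the 23 Polycomb list members in that fit 1 was higher and 4 were lower. The higher one was Max, a partner in a PRC1 variant, at 159 and 449 CPM for K27R and 41.5 and 58.95 CPM for R26K. The lower ones were Phf1, the PRC1 subunits Phc2 and Cbx2, and Rbbp7, a histone-binding protein shared by several complexes. Phc2 stood at 273 and 457 CPM for K27R and 1329 and 1510.3 CPM for R26K, Cbx2 at 45.7 and 77.96 against 262 and 202 CPM, and Rbbp7 at 2192 and 2428 against 4882 and 4355 CPM. For these 4 lower members both R26K libraries were above both K27R libraries.

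Genes for acetylation and deacetylation of lysine 27 had 1 call. Of 38 tested members 8 were above 0 (all tested genes: 41.9%), with a median log2 fold change of -1.36. Without K27R replicate 1 it was -2.16, where the median of all tested genes was -2.43, and with the GC and length correction it was -0.47, where that of all tested genes was 0.03. The 1 called member was Sap30 (chromosome 8, 57482707-57487860, minus strand), a subunit of the Sin3 histone deacetylase complex. Sap30 stood at 165 and 214 CPM for K27R, 3214 and 2504 CPM for R26K and 84.05 and 195 CPM for H3.3, and was lower in K27R by a log2 fold change of -3.92 ± 0.47 (edgeR adjusted p = 0.0399). Both R26K libraries were above all the others. The acetyltransferase gene Crebbp lay the other way, at 182 and 399 CPM for K27R and 61.97 and 80.3 CPM for R26K, and did not pass the test with all genes (log2 fold change 2.03 ± 0.48, edgeR adjusted p = 0.194). It was called in the fit of genes of at least 50 CPM (edgeR adjusted p = 0.0499), with Sap30 and Gatad2a, a subunit of the NuRD deacetylase complex, lower. Ep300, the other lysine 27 acetyltransferase gene, was at 0.896 and 3.89 CPM for K27R and 18.8 and 24.05 CPM for R26K, too low for a firm comparison (log2 fold change -3.16 ± 1.92, edgeR adjusted p = 0.627).

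Enzymes that act on arginine residues were mostly at low CPM, with 5 of 18 averaging 50 CPM or more, and none of 18 tested members was called. Carm1, which methylates arginine 26, was at 0 and 23.2 CPM for K27R, 19.2 and 7.80 CPM for R26K and 0 and 0 CPM for H3.3, so that the groups overlapped and no difference was detectable at this depth. Jmjd6, a hydroxylase and reported arginine demethylase, had the smallest p of the list, at 11.2 and 8.64 CPM for K27R and 115 and 84.998 CPM for R26K (log2 fold change -3.33 ± 0.83, edgeR adjusted p = 0.224). Padi6, an oocyte protein of the deiminase family, stood at 258 and 154 CPM for K27R and 452 and 495 CPM for R26K (log2 fold change -1.20 ± 0.33, edgeR adjusted p = 0.281). Both genes were lower in both K27R libraries than in both R26K libraries without passing the test. Of the 18 members 5 were above 0 and the median log2 fold change was -1.80, which ranged from -3.07 without K27R replicate 1, where all tested genes had a median of -2.43, to -0.10 for genes of at least 50 CPM.

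Among 40 tested genes for H3.3, its chaperones and histone supply, 1 was called, and it was lower in K27R. Asf1a (chromosome 10, 53596757-53609225, plus strand) encodes the chaperone that hands H3 with H4 to the HIRA and CAF-1 complexes. It stood at 66.2 and 97.6 CPM for K27R, 1099 and 734 CPM for R26K and 154 and 130.1 CPM for H3.3 (log2 fold change -3.48 ± 0.37, edgeR adjusted p = 0.0277). The R26K libraries were the highest and the K27R libraries the lowest of the 6. Its paralogue Asf1b was not called, at 874 and 622 CPM for K27R and 1158 and 883 CPM for R26K (log2 fold change -0.45 ± 0.48, edgeR adjusted p = 0.927). Atrx had a log2 fold change of 0.063 ± 0.57 and Daxx of -0.29 ± 2.16, neither called, and 15 of the 40 members were above 0 with a median of -0.23. Daxx stood at 99.9 and 81.1 CPM for K27R, 119 and 103 CPM for R26K and 239 and 0 CPM for H3.3. Its H3.3 replicates, which also enter the estimate of spread, differed most. Asf1a overlaps Mcm9 in the annotation.

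Among the other chromatin regulators, Arid5b and Zfp57 were called higher in K27R in the fit of all tested genes. Arid5b (chromosome 10, 68092520-68278740, minus strand), a DNA-binding partner of the demethylase Phf2, had the largest fold of the 40. It stood at 183 and 173 CPM for K27R, 225 and 312 CPM for H3.3 and 2.69 and 3.18 CPM for R26K (log2 fold change 5.92 ± 0.45, edgeR adjusted p = 0.0182). Zfp57 (chromosome 17, 37001163-37010635, plus strand), the zinc finger protein that keeps DNA methylation at imprints, stood at 1161 and 1211 CPM for K27R and 279.5 and 332 CPM for R26K (log2 fold change 1.96 ± 0.23, edgeR adjusted p = 0.0338). For both genes the 2 R26K libraries were the lowest of the 6. They were the 2 called members among 18 tested H3K9 methylation and heterochromatin genes (7 above 0, median -0.15), and Zfp57 was the 1 called among 23 DNA methylation genes (11 above 0, median -0.09). None of 25 H3K4 and H3K36 methylation enzymes and none of 35 BAF and other remodellers was called in that fit. In the fit of genes of at least 50 CPM, which held 20 of the remodellers, Arid1b was higher in K27R and Bcl7c, Ruvbl2 and Chd7 were lower. Of all genes in that fit 3.61% were higher and 6.13% lower. Ruvbl2 stood at 1.79 and 0 CPM for K27R, 230 and 271 CPM for R26K and 0.306 and 0.255 CPM for H3.3. Ruvbl2 and Bcl7c passed the filter of 50 CPM only through R26K, so their direction was tied to that filter. Bcl7c, a BAF subunit, had the smallest p of the remodellers, at 15.1 and 38.2 CPM for K27R and 854 and 797 CPM for R26K (log2 fold change -4.96 ± 0.69, edgeR adjusted p = 0.0569).

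Genes that H3K27me3 is known to mark in many cell types were mostly not tested. Of 74 developmental regulators on that list 59 fell under the filter on low counts and were not tested, and none of the 15 tested was called. Imprinted genes (20 tested, 10 above 0, median 0.02) and genes of the 2-cell embryo (16 tested, 7 above 0, median -0.17) had no call either in the fit of all tested genes. The smallest p among imprinted genes was that of H13, a signal peptide peptidase gene, at 15.4 and 2.66 CPM for K27R and 217 and 254 CPM for R26K (log2 fold change -4.70 ± 0.94, edgeR adjusted p = 0.140). H13 was called lower in the fit of genes of at least 50 CPM. It passed that filter only through R26K, so its direction was tied to the filter.

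Regulators of stored mRNA held the most significant gene in each direction. Paip1 (chromosome 13, 119428601-119458218, plus strand) encodes a protein that binds the poly(A)-binding protein and promotes translation. It stood at 5573 and 7248 CPM for K27R, 6263 and 6641 CPM for H3.3 and 202 and 128 CPM for R26K (log2 fold change 5.28 ± 0.33, edgeR adjusted p = 0.0174). Zar1 (chromosome 5, 72576806-72581254, minus strand), an oocyte protein that binds and stores maternal mRNA, was the mirror case, at 177 and 217 CPM for K27R, 194 and 269.5 CPM for H3.3 and 4316 and 4089 CPM for R26K (log2 fold change -4.41 ± 0.28, edgeR adjusted p = 0.0174). In both genes the R26K libraries stood apart from the other 4. Zar1 has a near-identical annotated copy, Gm42668.

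These were the only called members among the 65 tested storage, polyadenylation and decay genes, of which 28 were above 0 with a median of -0.35. In the fit of genes of at least 50 CPM, 3.61% of all genes were called higher and 6.13% lower. Of the 36 members in it, 6 were higher and 5 lower. The higher ones were Paip1, Khsrp, Lsm14b, Elavl2, Pan3 and Pum2, and the lower ones were Zar1, Fip1l1, Cnot11, Cnot8 and Edc4. Khsrp, which binds AU-rich elements, stood at 332 and 486 CPM for K27R and 26.8 and 50.4 CPM for R26K (edgeR adjusted p = 0.0132 in that fit). Cnot11, a subunit of the CCR4-NOT deadenylase, stood at 53.4 and 86.6 CPM for K27R and 548 and 354 CPM for R26K (edgeR adjusted p = 0.0165). Khsrp and Cnot11 thus lay on opposite sides of 0.

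Translation genes contributed 2 called members of 52 tested, both higher in K27R, Paip1 and Eif4a2 (23 above 0, median -0.19). Over all tested genes 0.375% were called and 41.9% were above 0, with a median of -0.32. Eif4a2, an RNA helicase of the initiation complex, stood at 511 and 686 CPM for K27R and 63.1 and 75.6 CPM for R26K (log2 fold change 3.11 ± 0.34, edgeR adjusted p = 0.0293). It has an annotated copy, Gm2999, and overlaps small nucleolar RNA genes. Pcbp1, a poly(C)-binding protein, lay the other way at 59.9 and 87.4 CPM for K27R and 627 and 757 CPM for R26K (log2 fold change -3.23 ± 0.40, edgeR adjusted p = 0.0453), and is named here after its values were seen. For both genes the H3.3 libraries lay near the K27R level.

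Maternal-effect genes, whose loss in the mother stops the early embryo, had 3 called members of 47 tested. Zfp57 was higher in K27R, Zar1 and Zbed3 were lower, and 24 of 47 were above 0 with a median of 0.04. Of all tested genes 0.375% were called and 41.9% were above 0, with a median of -0.32. Zbed3 (chromosome 13, 95323612-95337841, plus strand), a component of the subcortical maternal complex, had the highest mean CPM of the called genes. It stood at 1415 and 2019.8 CPM for K27R, 1452 and 1339 CPM for H3.3 and 14569 and 13679 CPM for R26K (log2 fold change -3.04 ± 0.25, edgeR adjusted p = 0.0182), so both R26K libraries were above the other 4. In the fit of genes of at least 50 CPM Dppa3, which protects the maternal genome from demethylation after fertilization, was also higher in K27R, at 8105 and 11140.2 CPM against 4425 and 3280.4 CPM for R26K. None of 31 oocyte-specific genes was called with all genes (17 above 0, median 0.23). Oosp2, a secreted oocyte protein, had the smallest p among them, at 825 and 838 CPM for K27R and 315 and 392.019 CPM for R26K (log2 fold change 1.23 ± 0.25, edgeR adjusted p = 0.145). In the fit of genes of at least 50 CPM Oosp2 and Oog3 were called higher in K27R.

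Of the genes around the MAP kinase pathway of metaphase arrest described here, Ywhab was called and Mos, Map2k1 and Mapk3 were not. Ywhab, a 14-3-3 protein that binds phosphorylated proteins, stood at 133 and 128 CPM for K27R, 750.1 and 806 CPM for R26K and 180.1 and 151 CPM for H3.3 (log2 fold change -2.57 ± 0.26, edgeR adjusted p = 0.0264), and is named here after its values were seen. Both R26K libraries were the highest of the 6. Mos, the oocyte kinase that starts the pathway, stood at 1405 and 2271 CPM for K27R and 994 and 1659.8 CPM for R26K with overlap (log2 fold change 0.47 ± 0.34, edgeR adjusted p = 0.750). Map2k1, a kinase that acts after Mos, stood at 318 and 215 CPM for K27R and 1066 and 977 CPM for R26K (log2 fold change -1.94 ± 0.29, edgeR adjusted p = 0.0641), and was called in the fit of genes of at least 50 CPM (edgeR adjusted p = 0.0150). Mapk3, a MAP kinase, had a log2 fold change of -0.38 ± 0.53. Dusp1, a phosphatase of MAP kinases and the smallest p among 23 immediate early genes, stood at 94.2 and 105 CPM for K27R and 791 and 571 CPM for R26K (log2 fold change -2.77 ± 0.37, edgeR adjusted p = 0.0550). It was called in the fit of genes of at least 50 CPM (edgeR adjusted p = 0.0122).

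The list of metaphase arrest and egg activation had 43 tested members, of which 1, Camk2g, was called higher in K27R and 1 was called lower, with 16 above 0 and a median of -0.40. Camk2g (chromosome 14, 20734875-20794088, minus strand) encodes the calcium-dependent kinase that drives exit from metaphase at fertilization. It stood at 310.5 and 533 CPM for K27R, 208 and 261 CPM for H3.3 and 22.1 and 17.5 CPM for R26K (log2 fold change 4.41 ± 0.43, edgeR adjusted p = 0.0232), with both R26K libraries the lowest of the 6. None of 61 spindle and kinetochore genes (29 above 0, median -0.02) and none of 33 genes of the anaphase-promoting complex, cohesin and separase (16 above 0, median -0.02) was called, also in the fit of genes of at least 50 CPM. Cdc20, an activator of that complex, had the smallest p of both lists, at 95.2 and 16.5 CPM for K27R and 562 and 498 CPM for R26K (log2 fold change -3.25 ± 0.80, edgeR adjusted p = 0.217), and its K27R replicates differed widely.

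Wtap, a subunit of the m6A methyltransferase complex, was the 1 called member of 19 tested m6A genes and was higher in K27R. It stood at 326 and 356 CPM for K27R and 22.1 and 23.99 CPM for R26K (log2 fold change 3.89 ± 0.32, edgeR adjusted p = 0.0182). In the fit of genes of at least 50 CPM 2 other members of the list were lower in K27R, Zc3h13, a partner of Wtap, at 43.2 and 30.3 CPM against 301 and 328 CPM for R26K, and the demethylase Alkbh5 at 198 and 171 CPM against 602 and 607 CPM. Zc3h13 was under 50 CPM in every K27R and H3.3 library (38.5 and 38.0 CPM for H3.3). It passed that filter only through R26K, so its direction was tied to the filter. The fit held 11 members of the m6A list, and 6.13% of all its genes were lower. Nup98, a nucleoporin, was the 1 called member of 49 nuclear pore and transport genes, at 1234 and 2496 CPM for K27R and 129.5 and 114 CPM for R26K (log2 fold change 3.93 ± 0.41, edgeR adjusted p = 0.0264). Its binding partner Rae1 was lower in K27R in the fit of genes of at least 50 CPM, at 49.6 and 60.7 CPM against 427 and 372 CPM for R26K (edgeR adjusted p = 0.0122). With H3.3 at 43.1 and 28.4 CPM, Rae1 was near or under the filter level outside R26K, so its direction was tied to that filter.

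Gtf2a1, a subunit of the general transcription factor TFIIA, was the 1 called member of 71 Mediator and RNA polymerase II genes, at 638 and 809.8 CPM for K27R and 85.7 and 81.3 CPM for R26K (log2 fold change 3.12 ± 0.29, edgeR adjusted p = 0.0214). The fit of genes of at least 50 CPM held 36 members, with 1 higher, Gtf2a1, and 5 lower. Of all genes in that fit 3.61% were higher and 6.13% lower. The lower members were the Mediator subunits Med22, Med30, Med15 and Med25 and the TFIID subunit Taf3. Med25 stood at 1.38 and 0.66 CPM for K27R, 300 and 257 CPM for R26K and 1.07 and 38.5 CPM for H3.3. It passed that filter only through R26K, so its direction was tied to the filter. Ccnl2, a cyclin found with splicing factors, was called lower at 51.2 and 39.8 CPM for K27R and 455 and 450.0 CPM for R26K (log2 fold change -3.31 ± 0.34, edgeR adjusted p = 0.0264). None of 63 splicing genes was called in the fit of all tested genes. The smallest p there was that of Srsf10, at 215 and 225 CPM for K27R and 34.8 and 41.5 CPM for R26K (log2 fold change 2.53 ± 0.36, edgeR adjusted p = 0.0605). Srsf10 and Sf3b1 were called higher in K27R in the fit of genes of at least 50 CPM, which held 28 splicing genes.

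Siah2, Klhdc2, Klhl9, Zfand5, Arrdc2 and Dda1 were called and were on none of the function lists. Siah2, a ubiquitin ligase, stood at 368 and 623 CPM for K27R and 5848 and 5369 CPM for R26K (log2 fold change -3.50 ± 0.31, edgeR adjusted p = 0.0207). Klhdc2, which recognizes C-terminal degrons for a cullin ligase, stood at 141 and 162 CPM for K27R and 2084 and 1834 CPM for R26K (log2 fold change -3.69 ± 0.31, edgeR adjusted p = 0.0182), and overlaps Nemf. Klhl9, a cullin 3 adaptor needed for cytokinesis, lay the other way, at 643 and 1326 CPM for K27R and 60.99 and 39.3 CPM for R26K (log2 fold change 4.30 ± 0.47, edgeR adjusted p = 0.0293). Siah2 and Klhdc2 were thus highest in R26K and Klhl9 lowest there. Also lower in K27R were Zfand5, a ubiquitin-binding protein that interacts with the proteasome (59.3 and 60.6 against 693 and 596 CPM), Arrdc2, an arrestin-domain protein (55.5 and 62.3 against 799 and 775 CPM), and Dda1, a cullin 4 ligase component (46.01 and 63.7 against 535 and 484 CPM) that is named after its values were seen. None of 52 genes on the list of ubiquitin conjugation and none of 42 proteasome genes was called in the fit of all tested genes. Their smallest p-values were those of Skp1a, a cullin 1 adaptor (1069 and 1280.0 CPM for K27R, 430.2 and 387 for R26K), and Psmd3, a lid subunit of the proteasome (31.1 and 4.46 against 522 and 522 CPM). In the fit of genes of at least 50 CPM Skp1a was called higher and Psmd3 lower. Psmd3 passed that filter only through R26K, so its direction was tied to the filter.

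The remaining called genes are given by direction. Higher in K27R were Tmbim6, a cell-death suppressor of the endoplasmic reticulum (766 and 1001 CPM for K27R, 54.6 and 65.7 for R26K), and Chsy1, a chondroitin synthase (689 and 1152 against 116 and 88.7 CPM). The same direction was seen for the septin gene Sept2 (448 and 725 against 50.5 and 27.8 CPM), the phosphatase gene Ptp4a2 (1552 and 1774 against 229.7 and 215 CPM), the Hsp90 co-chaperone gene Ptges3 (468 and 632 against 65.6 and 80.01 CPM) and Ccdc6 (4049 and 3189 against 858 and 784 CPM). Sept2 was the 1 called member of 37 genes of the actin cortex and septins, and Tmbim6 the 1 of 27 genes of the p53 response and apoptosis. The log2 fold changes of these 6 ran from 2.14 for Ccdc6 to 3.90 for Sept2. Lower in K27R were Surf4, a cargo receptor of the endoplasmic reticulum (372 and 514 against 2960.2 and 2346 CPM), Ptov1 (12.8 and 20.2 against 340.3 and 317 CPM) and AU022751 (971 and 1189 against 6636 and 8083 CPM). Named after their values were seen, Kdelr2, the receptor that returns proteins to the endoplasmic reticulum, and Igsf3 were higher (2.59 and 2.39 on the log2 scale), and Nsmce4a, Mlf2, Fam104a and Txndc5 were lower (-3.23, -3.18, -2.50 and -2.47). Ptges3, Ptp4a2, Wtap and Fam104a have near-identical annotated copies.

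The 36 function and marker lists held 16 of the 40 called genes, and 24 called genes were on none. For every list the values over all tested genes are 0.375% called, 41.9% above 0 and a median of -0.32. Cytosolic ribosomal protein genes had the highest median log2 fold change, 0.93, with 43 of 54 above 0 and no call. Without K27R replicate 1 it was -0.08, where the median of all tested genes was -2.43, and 3 of the 54 averaged 50 CPM or more. In that fit 34 of the 36 lists had a lower median than with all libraries. Heat shock and unfolded protein response genes had 9 of 41 above 0 and a median of -0.60, with none called in the fit of all tested genes. Canx was called higher in the fit of genes of at least 50 CPM. Immediate early genes had a median of -1.44 over 23 tested, and of -7.45 without K27R replicate 1. The median was -0.19 for 73 oxidative phosphorylation genes. It was 0.11 for 66 genes of the mitochondrial ribosome and pyruvate dehydrogenase, and ranged from -0.63 without K27R replicate 1 to 0.67 in the fit of genes of at least 50 CPM. Of the 14 members of that list that averaged 50 CPM or more, 13 were above 0 in the fit of all tested genes, with a median of 0.71, and none was called. Of all tested genes at that level 50.4% were above 0. DNA repair had 70 tested genes, none called in the fit of all tested genes, and a median of -0.38. Small RNA silencing (24 tested, 14 above 0, median 0.11) and vesicle fusion (45 tested, 19 above 0, median -0.16) had no call. In DNA repair the smallest p was that of Ung, the uracil DNA glycosylase, at 13.9 and 8.17 CPM for K27R and 211 and 235 CPM for R26K (log2 fold change -4.34 ± 0.59, edgeR adjusted p = 0.0560). In the fit of genes of at least 50 CPM Uvssa was called higher and Ung lower. Ung passed that filter only through R26K, so its direction was tied to the filter.

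**Figure D4:**
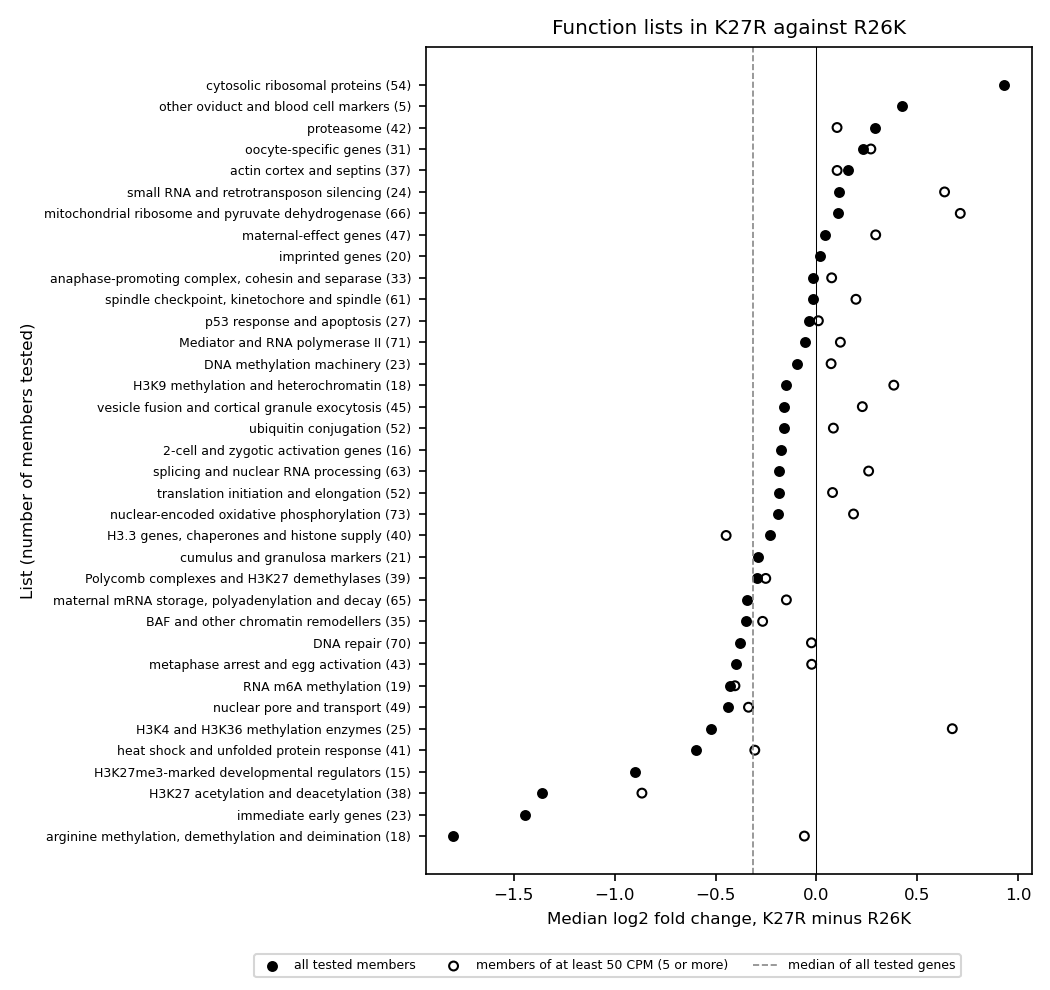
Median log2 fold change of K27R minus R26K (horizontal axis) for each list (vertical axis, number of tested members in brackets), with filled points for all tested members and open points for members of at least 50 CPM where there were 5 or more. The dashed line is the median of all tested genes, -0.32, and the lists spread from -1.80 for arginine enzymes to 0.93 for cytosolic ribosomal proteins.

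The called genes differed in base composition. The GC content of the longest transcript had a median of 45.4% in the 18 genes higher in K27R and 53.6% in the 22 lower genes, against 49.2% in all tested genes, and 4 of the 22 lower genes lay under the median of the genes of at least 50 CPM, 47.4%, against 10 of the 18 higher genes. The median transcript length was 3741 bases for the higher genes and 2278 bases for the lower ones. In 4 bins of about equal size of the abundant genes from low to high GC, the median log2 fold change of K27R minus R26K was 0.54, 0.18, -0.14 and -0.87. Within each group the replicates differed by no more than 0.12 in any bin, and the same bins gave -0.07, -0.01, 0.07 and 0.05 for K27R minus H3.3. Against the R26K libraries the medians ran from 0.54 to -0.80 with K27R replicate 1 alone and from 0.50 to -1.07 with K27R replicate 2 alone. The GC trend was thus present in both K27R libraries against R26K, while K27R and H3.3 differed little in any bin.

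**Figure D5:**
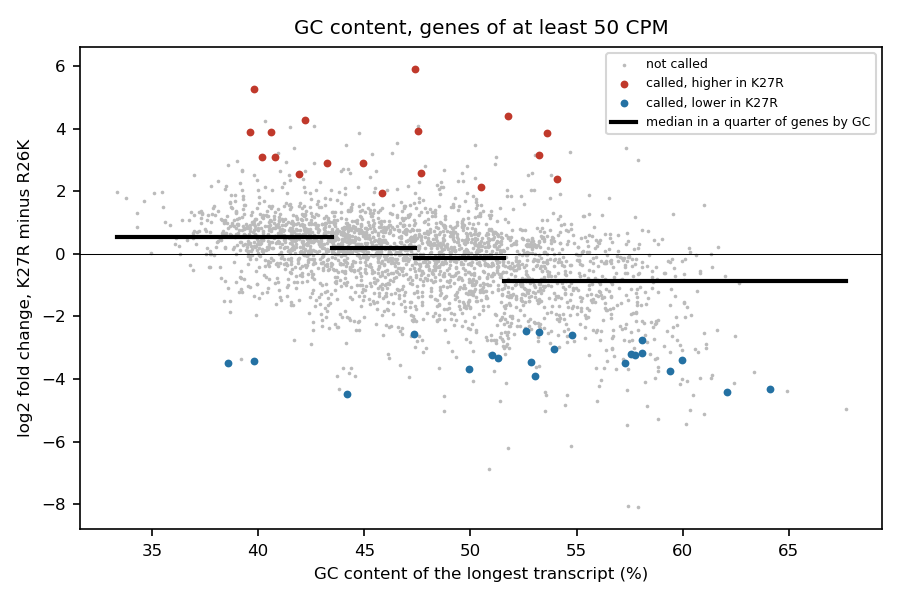
Log2 fold change of K27R minus R26K (vertical axis) against the GC content of the longest transcript in percent (horizontal axis) for genes of at least 50 CPM, with genes called higher in red, lower in blue and black bars at the median of each of 4 bins of about equal size by GC. The bars step down from 0.54 in the bin of lowest GC to -0.87 in that of highest GC.

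After correction of each library for GC and length, edgeR called 4 genes higher in K27R, Arid5b, Paip1, Igsf3 and Ccdc6, and 3 lower, Klhdc2, Asf1a and Zfand5. These 7 were all among the 40, and all 40 kept their direction. The other 33 had adjusted p-values from 0.0514 to 0.474 with the correction. The median absolute log2 fold change moved from 3.36 to 1.76 for the genes called lower and from 3.14 to 3.35 for those called higher, so the size of the lower genes depended on it. Phf1 moved from -3.41 to -1.05 (edgeR adjusted p = 0.473), Zar1 from -4.41 to -1.89 (edgeR adjusted p = 0.0696) and Siah2 from -3.50 to -1.64 (edgeR adjusted p = 0.285). Sap30 moved from -3.92 to -3.36 (edgeR adjusted p = 0.0648). The cause of the GC difference between the libraries was not tested.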

How the data were processed

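The deposited table holds raw gene counts for 6 libraries, per the labels' protocols from SMARTer cDNA and Nextera libraries of MII eggs read as single ends. The submitters' processing notes name cutadapt 1.9.1, TopHat2 2.1.0, SAMtools 1.3, featureCounts and the mm10 build. The settings for strand, annotation and reads with several matches are among what is not given in the sources used here. Fits were made on gene counts as deposited by the authors.

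edgeR 4.0.16 (R 4.3.3) was fitted to all 6 libraries with 3 group means, TMM scaling, filterByExpr and the quasi-likelihood test (3 residual degrees of freedom), with Benjamini-Hochberg adjustment over 10667 genes of 24062 and a threshold of 0.05. The standard error is the absolute log2 fold change over the square root of F, and CPM are scaled by TMM. With 2 libraries per group, p-values measure only the spread between these libraries. For groups this small an exact permutation test cannot pass 0.05, so none was used. The fit was tested on simulated data. Alternatives were DESeq2 1.42.0, other scalings and filters, a fit of the 4 libraries compared, robust dispersion, thinning, a replicate block, a correction for GC content and length, and leaving out each library.

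Named genes were H3f3a and H3f3b, the 12 largest changes and the 5 highest mean CPM in each direction among called genes, and, for each list, its called members (3 at most) or else its member with the smallest p. Enzymes and chaperones of the residues and MAP kinase genes were added for their role after values were seen, as were genes named only for the fit of genes of at least 50 CPM. Members and lists were chosen with earlier results of these data known. Results for 3 called genes are not reported here by name. Positions are from GENCODE M21.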

Additional observations from a re-analysis of the deposited data

How the results depend on the processing

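The count of genes called between K27R and R26K (18 higher, 22 lower) moved with these alternatives. DESeq2 called 162 higher and 518 lower, and no filter on low counts gave 56 and 100. A mean of at least 10 CPM gave 37 and 58, and a mean of at least 50 CPM gave 103 and 175. The GC and length correction gave 4 and 3, and with the replicate block 81 and 55. The fit of the 4 libraries compared gave 7 higher and 25 lower, with 19 of the 40 among them. Leaving out 1 library gave between 0 and 52 higher and between 0 and 95 lower. The cause was not tested beyond what fewer genes or libraries in a fit imply. RLE scaling (18 and 20) and robust dispersion (20 and 24) stayed within 1.5 times, as did upper-quartile scaling (23 and 17) and thinning (19 and 20). The 40 genes kept their direction in each of these settings. They were called for large differences in these same libraries, so a kept direction says little about stability. A replicate block gave 61 higher and 134 lower, but same-numbered libraries of different groups did not deviate together (correlations of 0.0012, -0.0096 and 0.011), so the numbers do not pair the samples. Depth limits K27R values to a floor of 3 counts at 0.244 and 0.285 CPM, against 0.0815 and 0.0907 CPM in R26K, for counting error only.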
